A study of Homo sapiens and Mus musculus with 24 samples.

Results

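Paraspeckles are nuclear bodies built on the long noncoding RNA NEAT1, and the mRNAs described here are those of 9 proteins that bind it: SFPQ, NONO, PSPC1, RBM14, TARDBP, EWSR1, TAF15, DAZAP1 and CPSF6. The genes were taken from a list of paraspeckle proteins, by Ensembl ID in human and by the same symbol in mouse. All 9 were found among the 58381 human genes and among the 53715 mouse genes of the count tables, and all 9 passed the filter on low counts in each of 4 cell types. For every cell type, 3 libraries of UV-irradiated cells (UPA-seq) and 3 of nonirradiated cells (RNA-seq) had been made, 24 in total, from RNA in the aqueous phase of a TRIzol extraction. HepG2 is a human hepatocellular carcinoma line, HEK293 a human embryonic kidney line (named HEK293T in the culture methods) and Neuro2a a mouse neuroblastoma line. HippCulture is a primary culture of hippocampal neurons from mouse embryos at E16.5, treated with AraC against glia according to the study's methods. The study calls its triplicates biological, while the labels do not say whether they were separate cultures, so p-values measure the spread between these samples, which may be technical in part.

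UV light joins RNA covalently to protein that touches it, and joined RNA moves to the interphase during phenol extraction. Crosslinks can also hinder reverse transcription of RNA that was recovered. Loss to the interphase, hindered reverse transcription and a lower abundance after UV all lower the share of reads of an RNA and cannot be told apart here. SFPQ, NONO and PSPC1 form the DBHS family of dimerizing RNA-binding proteins, of which SFPQ and NONO are needed to keep NEAT1 stable. EWSR1 and TAF15 are FET family proteins with prion-like domains, RBM14, TARDBP (TDP-43) and DAZAP1 are further RNA-binding proteins with such domains, and CPSF6 is a subunit of cleavage factor I, which acts at the early poly(A) site of NEAT1. TDP-43 binds UG-rich RNA and lowers the level of its own mRNA.

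The longest TG repeats of NEAT1 and of member mRNAs are shown because UG repeats are the sequences TDP-43 is known for. The stretches were read from GENCODE transcripts (releases 44 and M21), with the repeat in capitals and up to 6 flanking bases in lower case, cut at 30 bases.
NEAT1 (hg38, chr11:65444258-65444287, plus strand): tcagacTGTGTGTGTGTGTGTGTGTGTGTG
Neat1 (mm10, chr19:5826027-5826056, minus strand): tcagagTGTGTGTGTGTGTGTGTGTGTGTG
TARDBP (hg38, chr1:11023433-11023450, plus strand): aaacctTGTGTGggattg
Tardbp (mm10, chr4:148613765-148613784, minus strand): ctatagTGTGTGTGgacagc
Pspc1 (mm10, chr14:56721945-56721966, minus strand): tatgtaTGTGTGTGTGtacatt
CPSF6 (hg38, chr12:69269723-69269740, plus strand): gaaaccTGTGTGatttaa
The NEAT1 repeat runs on to 58 bases and that of Neat1 ends at 24. A run of at least 24 bases was held by 1.23% of 20182 human and 2.88% of 22466 mouse protein-coding genes, each represented by the transcript with the longest ORF. The median length of those transcripts was 2768.5 bases in human and 2493 in mouse, beside 22743 for NEAT1 and 20771 for Neat1. The shares were not adjusted for length.

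The motif TGTGTG, searched on the transcript strand only and with overlapping matches counted, occurred 76 times in the long NEAT1 transcript (3.34 per kb) and 48 times in Neat1 (2.31 per kb). It was found in 62.9% of the human and 64.8% of the mouse protein-coding transcripts, with a median of 0.343 and 0.438 per kb. Among the member transcripts of human, RBM14 and TARDBP held 2 each, DAZAP1 and CPSF6 held 1 each, and the other 5 held none. The NONO transcript used has no annotated 3′ UTR, so its count covers none. Other transcripts used were also shorter than the exon bases of their genes. These were 2229 beside 7190 bases for CPSF6, 2435 beside 4817 for PSPC1 and 2189 beside 10326 for EWSR1. Motif counts and 3′ UTR lengths therefore hold for the transcripts used, not for all isoforms. In mouse, Tardbp held 6 (0.802 per kb), Pspc1 4 (0.972 per kb), Dazap1 2, Nono 1 and Cpsf6 1, and the other 4 held none. In the printed mRNA sites of TARDBP, Tardbp, Pspc1 and CPSF6, the repeat lies in the 3′ UTR. TARDBP had the highest T content of the human members at 31.8%, above 94.5% of human transcripts, with a 3′ UTR of 2838 bases. In mouse the 3′ UTR of Tardbp was the longest of the members at 5879 bases. EWSR1 had the lowest T content, 18.9% in human and 18.8% in mouse. Letters in a window say nothing of whether a protein binds there.

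The libraries held 36573473 to 53511592 counts in HepG2 and 6910907 to 11188033 in the other cell types. Marker genes matched the labels, with 5 of 5 hepatocyte markers above 0.5 CPM (library-scaled counts) in HepG2, 4 of 4 kidney progenitor markers in HEK293 (2 of which were also above it in HepG2), 4 of 5 sympathetic lineage markers in Neuro2a, all but Gata3, and 7 of 7 neuronal markers in HippCulture. Astrocyte markers were also present in HippCulture, 4 of 4, with a summed level of 572 to 672 CPM beside 3178 to 3561 CPM for the neuronal markers, and so were oligodendrocyte lineage markers, 4 of 4, at 78.5 to 89.1 CPM. Protein-coding genes took 53.2% to 73.6% of the counts of UV libraries and 69.6% to 84.7% of those of nonirradiated ones, and edgeR's TMM scaling, used below, sets the bulk of genes to no change. With library size alone the median log2 change of all genes moved by −0.55 in HippCulture to −1.31 in HepG2, and all 9 members were then lower with UV in all 4 cell types, by −0.40 to −2.84. All changes given below are therefore relative to the other genes of that cell type. Replicate 1 of nonirradiated HepG2 stood apart, with 2.18 to 2.55 times as much NEAT1 as the other 2 libraries, and many HepG2 results are given without it too.

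Without irradiation NONO or SFPQ led the members in 3 of 4 cell types. Levels were compared between genes as RPKM, TMM-scaled CPM per kb of exon, with 1 scaling over the nonirradiated libraries of a species. NONO was highest in HepG2, where its RPKM was 77.0, 89.4 and 89.4 in the 3 libraries, and in HEK293, where it was 129.7, 118 and 91.8. SFPQ came next, with 29.9, 39.5 and 39.2 RPKM in HepG2 and 73.4, 43.2 and 41.3 in HEK293. No SFPQ library reached the lowest NONO library in either line, and these levels exceeded those of 93.8% (SFPQ) and 97.7% (NONO) of expressed protein-coding genes in HepG2. In Neuro2a, EWSR1 (62.9 to 63.7 RPKM) and NONO (59.8 to 64.3 RPKM) led with overlapping libraries. In HippCulture, SFPQ (32.7 to 44.1 RPKM) and NONO (34.0 to 35.2 RPKM) overlapped at the top. The lowest member was TAF15 in HepG2 (3.87 to 6.66 RPKM) and HippCulture (4.13 to 4.77 RPKM), DAZAP1 in HEK293 (3.13 to 5.92 RPKM) and PSPC1 in Neuro2a (5.85 to 7.44 RPKM). TAF15 stood above 48.6% of expressed protein-coding genes in HepG2 and 47.3% in HippCulture, and DAZAP1 above 48.6% in HEK293. Of the 8 neighbouring pairs in each order, 4 overlapped in HepG2 and 2 in HEK293, and 3 each in the mouse cells.

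**Figure D1:**
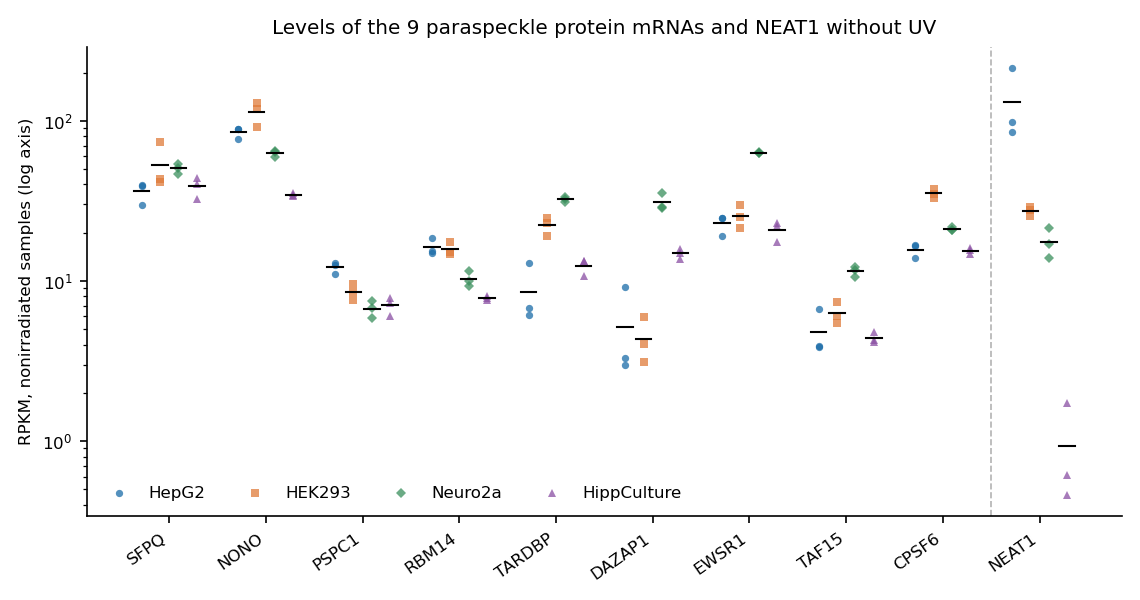
RPKM of the 9 mRNAs and of NEAT1 in each nonirradiated library on a log axis, with 4 cell types distinguished by colour and symbol and the mean as a black bar (n = 3). The mRNAs lie between 2.99 and 129.7 RPKM, while NEAT1 ranges from 0.46 RPKM in a HippCulture library to 212 RPKM in replicate 1 of HepG2.

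The place of single members in the order differed between cell types. DAZAP1, among the lowest members in both human lines, was 4.35 ± 1.43 RPKM (SD, n = 3) in HEK293 and 30.9 ± 3.97 in Neuro2a. These values were scaled separately and are given side by side only. They also rest on unlike lengths, 9201 exon bases for human DAZAP1 and 2944 for mouse Dazap1. Before division by length the means were 40.1 CPM in HEK293 and 91.0 CPM in Neuro2a. The mRNA of CPSF6 had a mean of 15.7 RPKM in HepG2 and 35.2 in HEK293, with 21.0 in Neuro2a and 15.5 in HippCulture. RBM14 had 16.2, 15.7, 10.2 and 7.81 RPKM in the same order, and PSPC1 12.2, 8.58, 6.70 and 7.03. NEAT1, whose level spans far more, had 131.8 ± 70.1 RPKM in HepG2 and 27.5 ± 1.79 in HEK293, with 17.5 ± 3.83 in Neuro2a and 0.937 ± 0.699 in HippCulture (SD, n = 3 each). In HepG2 it stood above all member means, by little without replicate 1, where the means of the other 2 libraries were 91.5 RPKM for NEAT1 and 89.4 for NONO. It stood between CPSF6 and EWSR1 in HEK293, between CPSF6 and TAF15 in Neuro2a and below all members in HippCulture.

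Between the 2 human lines, 4 members were higher and 1 was lower in HEK293 than in HepG2, where 38.1% and 37.6% of the 23830 genes tested were called in these directions. TARDBP was 12.9, 6.15 and 6.73 RPKM in HepG2 and 24.9, 23.1 and 19.1 in HEK293, without overlap, a log2 difference of 1.38 (SE 0.25, adjusted p = 4.3e-04). Without HepG2 replicate 1 that difference was 1.79. CPSF6 differed by 1.17 (SE 0.14, adjusted p = 1.7e-05), and PSPC1 was lower in HEK293 by −0.50 (SE 0.13, adjusted p = 0.0052). The calls of SFPQ (0.54, adjusted p = 0.047) and NONO (0.41, adjusted p = 0.046) were lost when HepG2 replicate 1 was left out, with adjusted p = 0.15 and 0.088. They were lost as well without either other HepG2 replicate or without HEK293 replicate 1, and that of NONO without HEK293 replicate 2. TAF15 was not called (0.38, adjusted p = 0.13) but was without HepG2 replicate 1 (0.68, adjusted p = 0.0027). HepG2 was sequenced on another instrument and counted with another featureCounts version than HEK293, which cannot be told apart from the cell line.

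In the mouse cells, 8 of 9 members were lower in HippCulture than in Neuro2a, a direction called for 39.0% of 20940 genes, and none was higher, a direction called for 41.4%. The largest difference was that of Ewsr1, from 63.7, 63.0 and 62.9 RPKM in Neuro2a to 22.8, 17.5 and 21.9 in HippCulture, a log2 difference of −1.61 (SE 0.09, adjusted p = 1.6e-11). Taf15 (−1.39), Tardbp (−1.37) and Dazap1 (−1.06) followed, with SEs of 0.09 to 0.12. Nono was lower by −0.86, Cpsf6 by −0.44, Rbm14 by −0.39 and Sfpq by −0.37, each kept without any library left out in turn. Pspc1 did not pass the test (0.07, SE 0.11, adjusted p = 0.59). Neat1 itself was lower by −4.23 (SE 0.29, adjusted p = 1.6e-10), and by −4.98 without HippCulture nonirradiated replicate 2. Markers of dividing cells summed to 56.2 to 77.1 CPM in HippCulture and 1010 to 1472 CPM in Neuro2a, astrocyte markers to 572 to 672 and 2.33 to 2.95 CPM, and oligodendrocyte lineage markers to 78.5 to 89.1 and 5.87 to 9.0 CPM. Their part in the differences was not tested, and in bulk samples fewer cells of a type and less RNA per cell cannot be told apart.

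After UV, 3 of 9 members were lower and 2 higher in HepG2, where 40.7% and 38.1% of the 20117 genes tested were called in these directions. In HEK293, 3 were lower and none higher, beside 26.4% and 24.2% of 20472 genes. In Neuro2a 7 were lower and none higher, beside 33.0% and 28.9% of 17425 genes, and in HippCulture 4 were lower and none higher, beside 25.9% and 26.1% of 18488 genes. The median log2 change of the members was −0.39 in HepG2 and −0.05 in HEK293, with −0.58 in Neuro2a and −0.19 in HippCulture. That of all genes tested was −0.08, −0.08, −0.14 and −0.04 in this order, and that of protein-coding genes 0.165, 0.011, −0.035 and 0.053. Without HepG2 nonirradiated replicate 1 the member in the middle in HepG2 was CPSF6, at −0.05. The median was then −0.09 for all genes and 0.11 for protein-coding ones. NEAT1 fell in every cell type, by −4.17 (SE 0.37) in HepG2 and −2.86 (SE 0.16) in HEK293, and by −3.57 (SE 0.16) in Neuro2a and −1.74 (SE 0.39) in HippCulture. Without nonirradiated replicate 1, NEAT1 in HepG2 changed by −3.71, and without nonirradiated replicate 2 Neat1 in HippCulture changed by −0.91, both still called. With all libraries no member fell as far as NEAT1 in the same cells, but without that HippCulture library Cpsf6 (−1.05) fell further than Neat1. The steepest member change was that of Cpsf6 in Neuro2a. SFPQ was lower in all 4 cell types, as were 14.3% of the 9580 genes tested under the same symbol in all of them.

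**Figure D2:**
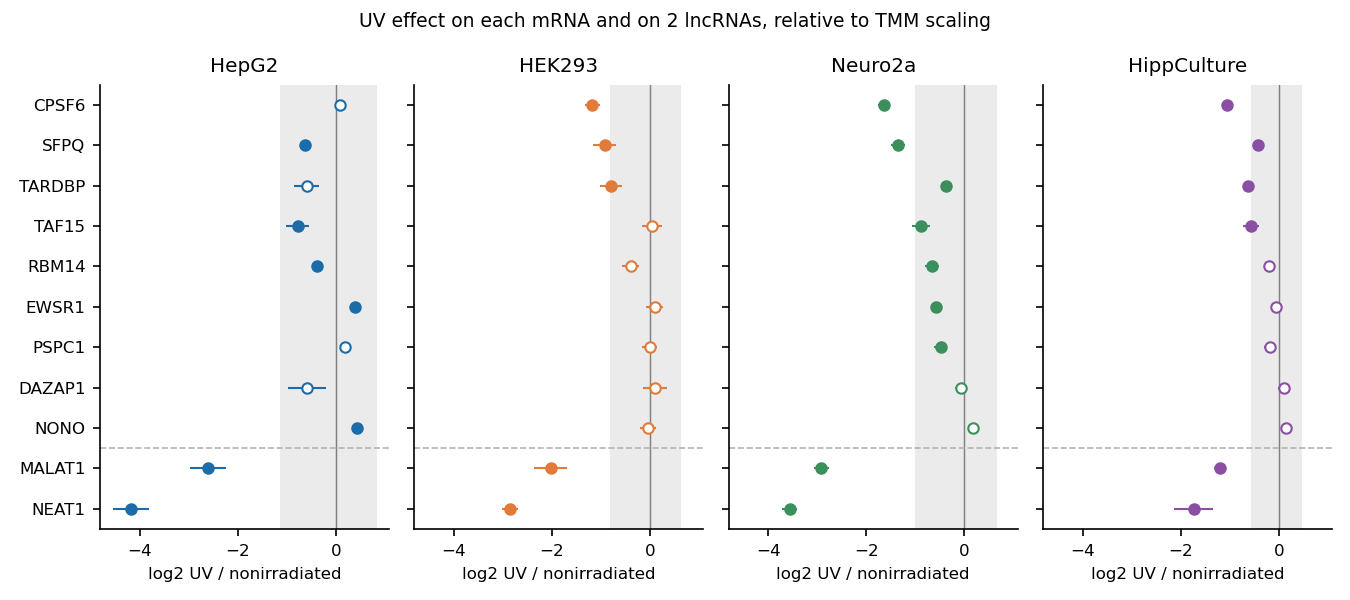
Log2 change upon UV with its SE for the 9 mRNAs, MALAT1 and NEAT1 in each cell type (n = 3 against 3), filled where the adjusted p was under 0.05; the grey band spans the middle 50% of all genes tested. NEAT1 lies at −4.17 to −1.74, and the members lie between −1.65 and 0.44.

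SFPQ, which keeps NEAT1 stable, lost reads in all 4 cell types, and the following values are TMM-scaled CPM of replicates 1 to 3. SFPQ (ENSG00000116560.10) lies on chromosome 1 of hg38 from 35176378 to 35193148, and Sfpq (ENSMUSG00000028820.13) on chromosome 4 of mm10 from 127021324 to 127037013. In HepG2 it went from 122, 158.5 and 159 to 89.95, 94.9 and 99.0, a log2 change of −0.63 (SE 0.11, adjusted p = 5.7e-04), and of −0.82 without nonirradiated replicate 1. In HEK293 it went from 492.5, 285 and 272.5 to 214, 169 and 168, a log2 change of −0.93 (SE 0.24, adjusted p = 0.0096). The groups did not overlap in either line, although replicate 1 of nonirradiated HEK293 was far above the other 2. In Neuro2a Sfpq fell from 177, 168 and 153 to 83.1, 58.8 and 51.8 (−1.36, SE 0.14, adjusted p = 1.8e-06). In HippCulture it fell from 165, 122 and 149 to 120.2, 102 and 103 (−0.42, SE 0.10, adjusted p = 0.0017). Every UV library was again below every nonirradiated one, by a smaller step in HippCulture. The HEK293 call was lost when UV replicate 2 was left out (adjusted p = 0.051), and there the replicate numbers pair the libraries and the blocked value was −0.88 (adjusted p = 9.8e-14).

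NONO, the partner of SFPQ in DBHS dimers, was not called lower in any cell type. NONO (ENSG00000147140.15) lies on chromosome X of hg38 from 71283192 to 71301168, and Nono (ENSMUSG00000031311.17) on chromosome X of mm10 from 101429318 to 101448591. In HepG2 it rose from 224, 255 and 258.5 to 340.5, 326 and 332 CPM (log2 change 0.44, SE 0.08, adjusted p = 8.9e-04), and to a smaller extent without nonirradiated replicate 1 (0.30). In HEK293 its libraries overlapped, at 619.9, 557 and 431 without and 532, 554 and 471 CPM with UV (−0.05, SE 0.16, adjusted p = 0.82). Nono in Neuro2a was 195, 193 and 182 CPM before and 234, 205 and 201 after UV, and its change of 0.17 (SE 0.09) did not pass the test (adjusted p = 0.13). With the replicate number as a block it did, with adjusted p = 0.024. In HippCulture it was 117, 118.5 and 120.5 CPM without and 125.5, 134 and 138 with UV, with a change of 0.16 (SE 0.08, adjusted p = 0.095) that was called without UV replicate 1 (0.20, adjusted p = 0.040). UV libraries were thus above nonirradiated ones without overlap in 3 cell types, of which HepG2 passed the test. With library size alone the direction of NONO flipped in these 3 cell types (−0.87, −1.02 and −0.40).

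PSPC1, the DBHS protein with the lowest level, was called lower in Neuro2a, where Pspc1 went from 27.0, 29.6 and 23.3 to 20.3, 20.4 and 16.6 CPM (log2 change −0.48, SE 0.13, adjusted p = 0.0060). PSPC1 (ENSG00000121390.18) lies on chromosome 13 of hg38 from 19674752 to 19783019, and Pspc1 (ENSMUSG00000021938.12) on chromosome 14 of mm10 from 56720710 to 56778316. In HEK293 (32.6 to 41.6 CPM without, 32.6 to 41.1 with UV) and HippCulture (27.4 to 34.8 and 25.9 to 29.9 CPM) the groups overlapped. In HepG2 it was 29.4 to 33.6 CPM without and 34.0 to 38.0 with UV, a change of 0.18 (SE 0.08, adjusted p = 0.064) that was 0.05 without nonirradiated replicate 1. The spread of the 3 DBHS mRNAs was thus widest in Neuro2a, from −1.36 for Sfpq to 0.17 for Nono.

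**Figure D3:**
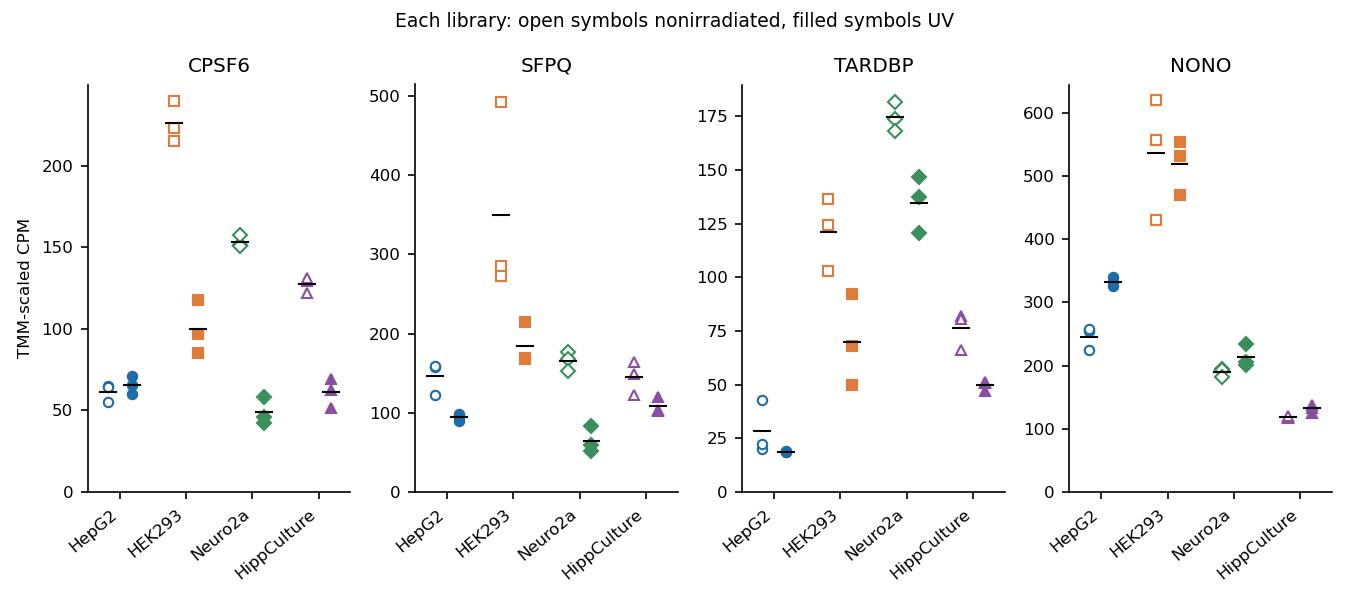
TMM-scaled CPM of CPSF6, SFPQ, TARDBP and NONO in each library, open without and filled with UV, with the mean as a black bar (n = 3). UV libraries of SFPQ lie below nonirradiated ones in all 4 cell types, those of CPSF6 in all but HepG2, and those of NONO lie above in all but HEK293.

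CPSF6, the cleavage factor I subunit, had the steepest member change in HEK293, Neuro2a and HippCulture and no called change in HepG2. CPSF6 (ENSG00000111605.16) lies on chromosome 12 of hg38 from 69239537 to 69274358, and Cpsf6 (ENSMUSG00000055531.12) on chromosome 10 of mm10 from 117344673 to 117380015. In HepG2 it was 54.9, 64.8 and 64.7 CPM without and 65.8, 60.4 and 70.9 with UV, overlapping (log2 change 0.09, SE 0.09, adjusted p = 0.36). Without nonirradiated replicate 1 the change there was −0.05 (adjusted p = 0.27). In HEK293 it fell from 215, 223 and 239.9 to 118, 85.0 and 97.0 (−1.18, SE 0.15, adjusted p = 2.7e-04). In Neuro2a Cpsf6 fell from 151, 151 and 158 to 58.5, 42.2 and 46.0 (−1.65, SE 0.12, adjusted p = 3.9e-08), a 3.13-fold loss. In HippCulture it fell from 129.5, 122 and 131 to 69.1, 51.6 and 62.8 (−1.05, SE 0.10, adjusted p = 1.6e-08). The nonirradiated libraries lay close together in each of these, and 9.8%, 6.8% and 3.7% of protein-coding genes had a more negative change in HEK293, Neuro2a and HippCulture, against 47.6% in HepG2.

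TARDBP, the mRNA of the UG-binding protein TDP-43, had lower means with UV in all 4 cell types and was called in 3. TARDBP (ENSG00000120948.16) lies on chromosome 1 of hg38 from 11012344 to 11026420, and Tardbp (ENSMUSG00000041459.15) on chromosome 4 of mm10 from 148612382 to 148627019. In HepG2 its libraries were 43.0, 20.2 and 22.3 CPM without and 18.8, 19.2 and 18.5 with UV (log2 change −0.60, SE 0.26, adjusted p = 0.057). The groups did not overlap, but the size rested on nonirradiated replicate 1, without which the change was −0.25 and passed the test (adjusted p = 2.7e-04), as it did without nonirradiated replicate 2 (0.0056) or 3 (0.017). In HEK293 it went from 136, 125 and 103 to 92.3, 68.1 and 49.8 (−0.79, SE 0.22, adjusted p = 0.014), a call lost without UV replicate 2 (adjusted p = 0.069) or UV replicate 3 (0.059). With the replicate block, whose numbers pair these libraries, the change was −0.82 (adjusted p = 1.6e-12). In Neuro2a Tardbp went from 174, 168 and 182 to 147, 120.5 and 137 (−0.37, SE 0.10, adjusted p = 0.0046). In HippCulture it went from 82.2, 66.0 and 80.8 to 51.2, 51.0 and 47.3 (−0.62, SE 0.10, adjusted p = 1.7e-05). Of its exon bases, 29.0% are shared in human with ENSG00000277726.4 on the same strand and 23.3% in mouse with Masp2 on the opposite strand, and reads there were counted for each gene without regard to strand.

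RBM14, which is needed to assemble paraspeckles, was called lower in HepG2, from 39.9, 31.5 and 33.2 to 27.3, 25.8 and 27.0 CPM (log2 change −0.39, SE 0.10, adjusted p = 0.0053). RBM14 (ENSG00000239306.4) lies on chromosome 11 of hg38 from 66616582 to 66627347, and Rbm14 (ENSMUSG00000006456.10) on chromosome 19 of mm10 from 4800569 to 4811634. It was also called in Neuro2a, from 31.1, 27.0 and 25.2 to 20.9, 17.7 and 14.2 (−0.66, SE 0.15, adjusted p = 0.0013). In HEK293 it went from 62.0, 52.7 and 51.3 to 52.8, 38.5 and 35.1 with overlap (−0.40, SE 0.17, adjusted p = 0.085), and it was called with the replicate block (−0.41, adjusted p = 3.8e-05) and without UV replicate 1 (−0.58, adjusted p = 0.0075). Each HEK293 library lost reads against the nonirradiated one of its own number. In HippCulture Rbm14 was 23.4 to 24.5 CPM without and 20.4 to 21.6 with UV, without overlap, and did not pass the test (−0.19, SE 0.11, adjusted p = 0.14). Its exons share 11.0% of bases with RBM14-RBM4 in human, and 18.6% with Gm21992 and 8.9% with Gm21844 in mouse.

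DAZAP1, which also acts in splicing, was the only member called in no cell type. DAZAP1 (ENSG00000071626.16) lies on chromosome 19 of hg38 from 1407569 to 1435687, and Dazap1 (ENSMUSG00000069565.12) on chromosome 10 of mm10 from 80261486 to 80288408. In HEK293, Neuro2a and HippCulture its groups overlapped, with log2 changes of 0.10, −0.06 and 0.10 (SE 0.25, 0.12 and 0.11). In HepG2 it was 46.2 CPM in nonirradiated replicate 1, 14.9 at the lowest of the other 2, and 17.3, 16.3 and 17.8 CPM with UV. Its change of −0.59 (SE 0.39, adjusted p = 0.19) was 0.06 without nonirradiated replicate 1 and −0.88 (adjusted p = 0.027) without nonirradiated replicate 2. Nonirradiated replicate 1 had 2.80 to 3.11 times the DAZAP1 of the other 2, the same library in which NEAT1 and TARDBP were high.

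The 2 FET family mRNAs went different ways in HepG2. EWSR1 (ENSG00000182944.17) lies on chromosome 22 of hg38 from 29268009 to 29300525, and Ewsr1 (ENSMUSG00000009079.16) on chromosome 11 of mm10 from 5069689 to 5099266. TAF15 (ENSG00000270647.5) lies on chromosome 17 of hg38 from 35713791 to 35864615, and Taf15 (ENSMUSG00000020680.15) on chromosome 11 of mm10 from 83473086 to 83506743. EWSR1 rose there from 109, 138 and 139 to 169.6, 166 and 170.2 CPM (log2 change 0.39, SE 0.10, adjusted p = 0.0057), while TAF15 fell from 21.7, 12.3 and 12.6 to 10.7, 7.79 and 8.56 (−0.78, SE 0.23, adjusted p = 0.011). Without nonirradiated replicate 1 the values were 0.21 and −0.54, both still called. The EWSR1 call was lost when genes with at least 10 counts in every sample were tested (0.12, adjusted p = 0.23), and with library size alone its direction flipped (−0.92). In Neuro2a both were lower. Ewsr1 went from 260.0, 258.5 and 258 to 183, 171 and 164 (−0.58, SE 0.09, adjusted p = 6.3e-05) and Taf15 from 24.6, 21.4 and 23.9 to 17.7, 10.7 and 9.24 (−0.88, SE 0.19, adjusted p = 9.7e-04). In HEK293 neither passed the test, with changes of 0.10 for EWSR1 and 0.05 for TAF15 (SE 0.17 and 0.20). In HippCulture Taf15 was lower, from 9.50, 11.0 and 9.76 to 7.26, 5.04 and 7.63 (−0.57, SE 0.17, adjusted p = 0.0085), and Ewsr1 overlapped between groups (−0.06, SE 0.10, adjusted p = 0.61). Human TAF15 shares 7.2% of its exon bases with HEATR9 on the opposite strand.

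The difference in UV effect between the cell types of a species was tested as an interaction. Between HepG2 and HEK293, 1 of 9 members differed, beside 7.94% of the 16759 genes tested, 3.1% in the direction of lower in HEK293. This was CPSF6, whose change was lower in HEK293 by −1.17 on the log2 scale (SE 0.18, adjusted p = 0.0015), as it was without each library in turn. TAF15 differed by 0.93 (SE 0.32, adjusted p = 0.091), and with the replicate block, whose numbers pair HEK293 but not HepG2 libraries, it was called (adjusted p = 0.0020). Without HepG2 nonirradiated replicate 1 its difference was 0.62 (adjusted p = 0.18). DAZAP1 differed by 0.79 (SE 0.50, adjusted p = 0.36), and by 0.08 without that library. Between Neuro2a and HippCulture, 3 of 9 members differed, beside 24.5% of 14973 genes, and in all 3 the change was less negative in HippCulture, a direction called for 16.1%. They were Sfpq (0.94, SE 0.20, adjusted p = 0.0019), Cpsf6 (0.60, SE 0.16, adjusted p = 0.012) and Ewsr1 (0.53, SE 0.14, adjusted p = 0.011). Rbm14 (0.47, adjusted p = 0.057) was called with the replicate block (adjusted p = 0.015), whose numbers pair Neuro2a libraries and HippCulture ones weakly if at all. It was also called without Neuro2a UV replicate 1 or nonirradiated replicate 3 (adjusted p = 0.013 and 0.043). Taf15 (0.32, adjusted p = 0.42) was called without Neuro2a UV replicate 1 (0.66, adjusted p = 0.040). NEAT1 had differences of 1.42 (SE 0.39, adjusted p = 0.041) toward HEK293 and 1.84 (SE 0.54, adjusted p = 0.016) toward HippCulture, so it fell less there. The human NEAT1 difference was 0.88 without HepG2 nonirradiated replicate 1 (adjusted p = 0.032), and its call was lost when any UV library of HepG2, any nonirradiated library of HEK293 or HEK293 UV replicate 2 or 3 was left out (adjusted p = 0.052 to 0.12). The mouse one was 2.62 without HippCulture nonirradiated replicate 2 and lost its call without HippCulture UV replicate 1 (adjusted p = 0.12). NEAT1 (ENSG00000245532.8) lies on chromosome 11 of hg38 from 65422774 to 65445540, and Neat1 (ENSMUSG00000092274.2) on chromosome 19 of mm10 from 5824708 to 5845478.

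Set against NEAT1 within each library, the member mRNAs had higher mean levels after UV. The level of NEAT1 over that of an mRNA, both per kb of exon, does not depend on the scaling of libraries. For NONO in HepG2 it was 2.76, 0.948 and 1.10 without and 0.0766, 0.0557 and 0.0582 with UV. For SFPQ it was 7.10, 2.14 and 2.51 without and 0.407, 0.268 and 0.274 with UV, so that NEAT1 went from the higher to the lower of the 2 RNAs in every library. In HEK293 the same ratio for SFPQ went from 0.395, 0.591 and 0.675 to 0.0973, 0.168 and 0.154, and in Neuro2a from 0.259, 0.334 and 0.464 to 0.0543, 0.0822 and 0.102. The ratio fell 9.94-fold (TAF15) to 22.6-fold (NONO) in HepG2, 3.21-fold (CPSF6) to 8.03-fold (DAZAP1) in HEK293 and 3.68-fold (Cpsf6) to 13.1-fold (Nono) in Neuro2a. Without nonirradiated replicate 1 the range in HepG2 was 7.47-fold (SFPQ) to 16.2-fold (NONO). All 9 members had no overlap between groups in these 3 cell types, as had 95.1%, 96.2% and 98.8% of all genes (exact permutation p = 0.1 for each, the smallest that 3 against 3 samples allow).

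In HippCulture the ratio separated the groups for 4 of 9 members (Nono, Rbm14, Dazap1 and Ewsr1), beside 64.4% of all genes. Neat1 was at 9.98, 28.5 and 7.47 CPM without and 6.12, 3.43 and 3.88 CPM with UV, which is 17 to 275 reads a library, and nonirradiated replicate 2 lay far above the other 2. For Nono the ratio was 0.0180, 0.0506 and 0.0131 without and 0.0103, 0.00540 and 0.00591 with UV, a 3.31-fold fall. For Cpsf6 it was 0.0390, 0.118 and 0.0288 without and 0.0448, 0.0336 and 0.0312 with UV, overlapping, a 1.41-fold fall (exact permutation p = 0.7). Without nonirradiated replicate 3, or without UV replicate 1, 8 of 9 members separated. The share of all genes is given only for the full set of libraries, so these counts cannot be set against one. Without nonirradiated replicate 2 the ratio fell 2.22-fold for Nono, while for Cpsf6 it was 1.08-fold higher with UV.

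**Figure D4:**
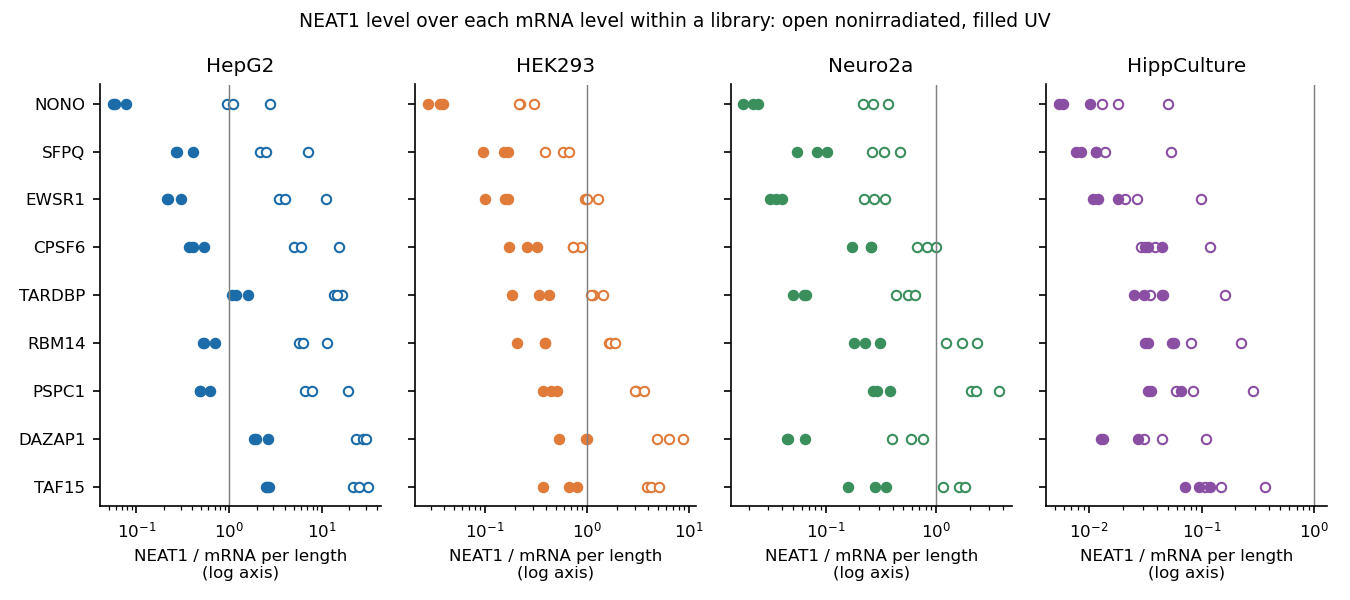
NEAT1 level divided by the level of each mRNA, per kb of exon, within each library on a log axis, open without and filled with UV (n = 3 each); the vertical line marks equal levels. The groups are apart for all 9 mRNAs in HepG2, HEK293 and Neuro2a, and for 4 of 9 in HippCulture.

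Of 25 other genes listed for paraspeckle proteins, all 25 were tested in both human lines, 24 in Neuro2a and 23 in HippCulture, ZNF335 having no mouse gene of that symbol and Fign being under the filter in HippCulture. For MATR3, which has 2 human IDs, the one with more counts was used. Of these, HepG2 had 9 lower and 10 higher (median −0.09) and HEK293 10 lower and 2 higher (median −0.24). Neuro2a had 15 lower and 3 higher (median −0.58) and HippCulture 14 lower and 2 higher (median −0.27), beside the shares of all genes given above. The lowest 2 were FIGN (−1.88) and SS18L1 (−0.81) in HepG2, NUDT21 (−1.13) and FIGN (−1.04) in HEK293, Rbm4b (−1.85) and Srsf10 (−1.81) in Neuro2a, and Ss18l1 (−1.07) and Matr3 (−0.85) in HippCulture. AKAP8L had the highest change in each cell type, with 1.03, 0.69, 1.10 and 0.64. It was followed by RBMX (0.79) in HepG2 and HNRNPA1 (0.55) in HEK293, and by Nudt21 (0.40) in Neuro2a and Smarca4 (0.31) in HippCulture. In HEK293 the AKAP8L groups overlapped, at 47.8 to 68.1 CPM without and 59.5 to 116.5 with UV (adjusted p = 0.041). That call ended without nonirradiated replicate 1 or 3 or UV replicate 2 or 3. With the replicate block it was kept (adjusted p = 1.8e-07). CPSF7, MATR3, HNRNPH1, HNRNPR, RBM12, SRSF10 and SS18L1, picked out after their values were seen, were lower in all 4 cell types, a pattern of 14.3% of the 9580 genes above. Leaving out UV replicate 2 or 3 ended the HEK293 calls of CPSF7, HNRNPH1 and HNRNPR, as did nonirradiated replicate 3 for CPSF7 and 1 for HNRNPR, and that of SS18L1 ended without UV replicate 1 or 2 or nonirradiated replicate 2 or 3. With the replicate block all of these HEK293 calls were kept. Their adjusted p was 1.7e-04 for CPSF7, 2.8e-12 for HNRNPH1, 2.0e-08 for HNRNPR and 3.6e-05 for SS18L1. In HippCulture the call of Cpsf7 ended without replicate 2 or 3 of either group, and that of Hnrnpr without nonirradiated replicate 1 or 3.

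**Figure D5:**
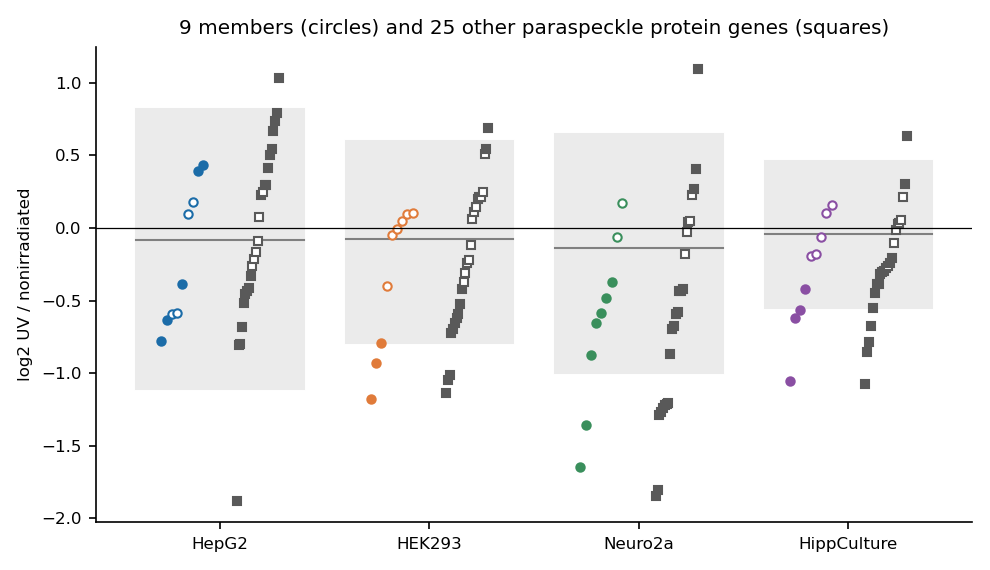
Log2 change upon UV of the 9 members (circles) and of the other paraspeckle protein genes that were tested (squares), sorted within each list and filled where the adjusted p was under 0.05; the grey box spans the middle 50% of all genes tested and its line is their median. Members span −1.65 to 0.17 in Neuro2a and −1.18 to 0.10 in HEK293.

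Cleavage factor I joins CPSF6 or CPSF7 to NUDT21, the subunit that reads UGUA, and these partners of CPSF6 were singled out after their values were seen. CPSF7 was lower by −0.43 in HepG2 and −0.42 in HEK293, with −1.21 in Neuro2a and −0.38 in HippCulture (SE 0.07 to 0.13). NUDT21 went from 88.2, 119 and 114 to 90.1, 88.6 and 89.2 CPM in HepG2, where it was not called (−0.26, SE 0.11, adjusted p = 0.051) but was without nonirradiated replicate 1 (−0.46, adjusted p = 4.9e-17). In HEK293 it fell from 244.5, 244 and 234.5 to 104.5, 115 and 110.4 (−1.13, SE 0.12, adjusted p = 1.1e-04), and its change was lower there than in HepG2 by −0.77 (SE 0.17, adjusted p = 0.013). In Neuro2a, where Cpsf6 and Cpsf7 fell, Nudt21 rose from 101.1, 100.3 and 100.4 to 130.4, 133 and 136 (0.40, SE 0.09, adjusted p = 0.0010). In HippCulture it fell by −0.38 (SE 0.08). The subunits thus moved together in HEK293 and HippCulture and apart in Neuro2a.

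Genes outside the list with a profile of UV changes most like the median of the members were PITPNM2, CRTC1, MAP4, RBM6 and TMEM201, among 9580 genes tested in all 4 cell types. Their distance (Euclidean, over the 4 log2 changes) was 0.085 to 0.139. In HepG2 the member median was −0.39, while the middle member without nonirradiated replicate 1 stood at −0.05. The search was not repeated without that library. RBM6, an RNA-binding protein, changed by −0.44 in HepG2 and 0.04 in HEK293, with −0.51 in Neuro2a and −0.24 in HippCulture. The other 4 lay between −0.27 and −0.47, −0.02 and −0.14, −0.58 and −0.67, and −0.13 and −0.25 in the same order of cell types.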

How the data were processed

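Libraries were made from rRNA-depleted RNA with a TruSeq kit (a stranded mRNA kit per the labels, TruSeq RNA v2 in the study's methods), with a HiSeq4000 as sequencer for HepG2 and a HiSeq2500 for the other cell types. The authors aligned human reads to hg38 and mouse reads to mm10 by TopHat2 2.1.1 and made the deposited counts, whole reads per gene without normalization, with featureCounts 1.5.3 (HepG2) or 1.6.1 on GENCODE exons; a read on several genes counted for every one, and the file headers name no strand or multimapping option. Each gene's length is the exon length listed in the deposited files. Gene names and types came from GENCODE 44 and M21 by Ensembl ID, for 98.93% of human and 99.82% of mouse genes.

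Counts were tested with edgeR 4.0.16 in R 4.3.3 (quasi-likelihood test, TMM scaling), with Benjamini-Hochberg adjustment over all genes with a mean of at least 0.5 CPM in the nonirradiated samples and a threshold of 0.05. UV was tested in each cell type alone, and the interaction and the nonirradiated levels within each species. The SE is the log2 change divided by the square root of F. DESeq2 1.42.0, other scalings and filters, a replicate block and leaving out each sample were alternatives. For pairing, deviations of same-numbered UV and nonirradiated samples from their group means were correlated. Replicate numbers were taken to pair the libraries where every correlation exceeded 0.1. This held in HEK293 (0.37 to 0.65) and Neuro2a (0.104 to 0.29), but not in HepG2 (−0.02 to 0.01) or HippCulture (0.06 to 0.14). In HippCulture the mean was 0.089, beside −0.044 for samples of different number, so weak pairing is not excluded there. Ratios to NEAT1 were compared by exact two-sided permutation, and other calculations used Python 3.11.15. The code was tested on simulated counts. The members, lists and tests were chosen with earlier results of these data known. Named are the members, NEAT1, the 2 most negative and 2 most positive called genes of the other list per cell type, the 5 genes nearest to the members' median profile and genes sharing exon bases; the partners of CPSF6 and the genes of the other list that were lower in all 4 cell types were added after their values were seen.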

Additional observations from a re-analysis of the deposited data

Results flagged for a closer look

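Between the human lines the UV effect differed for CPSF6, by −1.17 on the log2 scale (HEK293 minus HepG2), and for NEAT1, by 1.42. Between the mouse cells (HippCulture minus Neuro2a) it differed for Sfpq by 0.94, Ewsr1 by 0.53, Cpsf6 by 0.60 and Neat1 by 1.84. Each was the interaction term of a fit over 12 libraries with an adjusted p under 0.05. CPSF6 had a negative change in 3 cell types and a change of 0.09 in HepG2 (−0.05 without nonirradiated replicate 1). Its mean level with UV was 84.9 CPM in HepG2 and 84.6 CPM in HEK293, while without UV it was 86.7 and 195 CPM in the joint fit. Sequencer, featureCounts version and human cell line cannot be told apart.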

How the results depend on the processing

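With library size alone, all 9 members were called lower in each cell type. Of all genes, 15838 of 20117 in HepG2 and 11188 of 20472 in HEK293 were called lower under this scaling. In the mouse cells these were 12867 of 17425 in Neuro2a and 9151 of 18488 in HippCulture. Directions then reversed for NONO (−0.87), PSPC1 (−1.13), EWSR1 (−0.92) and CPSF6 (−1.21) in HepG2, DAZAP1 (−0.67), EWSR1 (−0.68) and TAF15 (−0.73) in HEK293, NONO in Neuro2a (−1.02) and in HippCulture (−0.40), and DAZAP1 in HippCulture (−0.45). The difference of NONO in UV effect between the mouse cells reversed to 0.60 and that of RBM14 in level between the human lines to 0.40. Interactions were then called for 2 human and 8 mouse members, and human ones for 3 with genes of at least 1 count and for 2 with the replicate block. With library size alone the term was called positive for 2895 and negative for 120 of 16759 human genes. In mouse it was 7143 and 66 of 14973. Human genes called were 1244 and 335 of 44711 with at least 1 count, and 1445 and 2086 of 16759 with the block. Human level differences were called for 3 members with at least 10 counts in every sample, beside 5384 genes higher and 5468 lower in HEK293 of 15209. In HippCulture, 0 members separated from NEAT1 with a pseudocount of 1 RPKM and 8 against MALAT1. No share of all genes is given beside these counts. The causes were not tested. Leaving out 1 library gave 5 to 7 called members in HepG2 and 1 to 4 in HEK293 (1 without UV replicate 2). It gave 7 in Neuro2a and 4 to 5 in HippCulture. Of all genes, 7609 to 8789 were then lower and 7098 to 7849 higher in HepG2, of 19778 to 20243. In HEK293 these were 4125 to 5346 and 4013 to 5053 of 20407 to 20730. In Neuro2a they were 5322 to 5664 and 4644 to 4966 of 17425 to 17472. In HippCulture they were 3859 to 4592 and 4176 to 5124 of 18309 to 18803. Interactions were called for 1 human and 3 to 5 mouse members (5 without Neuro2a UV replicate 1). Of all genes, 236 to 1034 were negative and 500 to 895 positive in human, of 16679 to 16827. In mouse these were 905 to 1460 and 1853 to 2484 of 14881 to 15090. Level differences without 1 library were called for 3 to 5 human members. Of 23571 to 24045 genes, 8224 to 9135 were higher and 8409 to 9112 lower in HEK293. In mouse 8 members were called. Of 20853 to 21138 genes, 8432 to 8727 were higher and 7537 to 7985 lower in HippCulture. The ratios of 4 to 8 members separated in HippCulture without 1 library, with no share of all genes given. The replicate block called RBM14 in HEK293 and NONO in Neuro2a and, without pairing, TARDBP in HepG2. With it the interactions of TAF15 between the human lines (0.90) and RBM14 between the mouse cells (0.47) were called. There the numbers met the rule for pairing in 1 cell type each. The block changed no other call of the members or NEAT1. Of the other list it called 14 lower and 6 higher in HEK293, beside 7228 and 6687 of 20472 genes. In Neuro2a it called 16 lower and 4 higher, beside 6036 and 5352 of 17425 genes. DESeq2 as the test changed 2 of 80 single calls. Low counts limit Neat1 in HippCulture.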
